A study of Mus musculus with 3 samples.

Results

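The integrated stress response genes examined here are 10 genes, Atf4, Ddit3, Trib3, Chac1, Asns, Sesn2, Fgf21, Psat1, Hspa5 and Xbp1, chosen by name and found by symbol among 20738 genes of the array. All 10 were measured. RNA of whole proximal jejunum, the upper small intestine beyond the duodenum, came from mice with Sox4 deleted by villin-Cre, a recombinase active in the intestinal epithelium. It was set against wild-type jejunum RNA on 3 arrays with 2 colours, each array holding a different knockout mouse in Cy5 and wild-type RNA in Cy3. No dye swap was analysed here. The age and sex of the mice and any pooling of the wild-type RNA are unknown here. The tissue was whole, so muscle, immune cells and fat, in which villin-Cre is not active, contributed RNA as well.

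In the integrated stress response, stress-sensing kinases phosphorylate the translation factor eIF2alpha, which lowers general protein synthesis while favouring translation of Atf4 mRNA. ATF4 then switches on genes for amino acid synthesis and transport, redox defence and, with its partner CHOP (the product of Ddit3), cell death. The unfolded protein response of the endoplasmic reticulum (ER) feeds into it through the kinase PERK, and acts in parallel through XBP1 and the chaperone BiP (the product of Hspa5). Secretory cells of the gut, such as Paneth and goblet cells, are known to depend on Xbp1. As ATF4 is controlled largely at translation, its mRNA does not report its activity.

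ATF4 is known to bind a composite C/EBP-ATF response element, searched here as TGATGNAA on both strands, and BiP is a classic target of the ER stress response element (CCAAT and CCACG with a spacer of fixed length). The windows searched ran from 250 bases before to 50 bases after each RefSeq start site (GRCm38.p6), and all 10 genes had at least 1 window. The first motif was found in 4 of the 10 genes, Chac1, Fgf21, Asns and Trib3, and in 3.97% of all 32851 windows. The second was found in Hspa5 alone among the 10 genes, and in 0.119% of all windows. Another motif, the unfolded protein response element TGACGTGG, was found in none of the 10 genes and in 0.676% of windows. The matches are shown because the genes that carry the first motif include both the highest and the lowest ratio of the 10 (below). Each stretch reads 5′ to 3′ along the gene's strand, with the match in capitals, and Trib3's match lies after the start site, from base 15 to 22.
Chac1 (chr2:119351013-119351092, plus strand): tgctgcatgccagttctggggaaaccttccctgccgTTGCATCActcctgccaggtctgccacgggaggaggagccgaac
Fgf21 (chr7:45615586-45615665, minus strand): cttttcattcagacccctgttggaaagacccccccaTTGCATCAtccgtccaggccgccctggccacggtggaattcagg
Asns (chr6:7693210-7693289, minus strand): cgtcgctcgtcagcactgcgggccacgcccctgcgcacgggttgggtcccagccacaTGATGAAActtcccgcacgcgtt
Trib3 (chr2:152344028-152344057, minus strand): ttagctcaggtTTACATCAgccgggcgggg
Hspa5 (chr2:34771995-34772074, plus strand): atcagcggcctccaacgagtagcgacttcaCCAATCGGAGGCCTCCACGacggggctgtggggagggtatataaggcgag
In Chac1, Fgf21 and Trib3 the match lies on the opposite strand and is read as TTNCATCA. A match of letters is a description and shows no binding.

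The arrays gave ratios without intensities, so levels could not be compared between genes, and the presence of jejunal markers could not be checked. All values are log2 ratios read as knockout over wild type, given with the SD over n = 3 arrays. Base 2 is assumed, and the direction of the deposited ratios is taken from the dyes, and every sign would turn if it ran the other way. Sox4 itself had ratios of -0.66, 0.18 and -0.46 on arrays 1, 2 and 3, so on array 2 the library labelled as knockout showed no lower mean of its Sox4 features. The arrays correlated positively over all features (r between 0.438 and 0.514). The Y-linked gene Eif2s3y (-7.28 ± 0.25) fell and Xist (1.71 ± 0.18), the RNA of the inactive X chromosome, rose on every array, so sex and genotype cannot be told apart in any result below. The Xist call was lost when array 1 or array 3 was left out (adjusted p of 0.167 and 0.174). In RNA of whole tissue, fewer cells of a type and less RNA per cell cannot be told apart.

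The stress response genes did not lie on the same side of wild type. Trib3 was lower on every array, Fgf21 and Psat1 were higher on every array, and the others were small or differed between arrays. None of the 10 passed limma's test at an adjusted p under 0.05, where 0.328% of all genes did. At an unadjusted p under 0.05, 2 were higher (Fgf21 and Psat1) and 1 was lower (Trib3), while 26.3% of all genes passed this threshold, 12.0% higher and 14.3% lower. The same sign on all 3 arrays was seen for 6 of the 10, 3 in each direction, where 50.6% of all genes had it (23.2% higher and 27.3% lower). Both counts lie near the shares of all genes. The median of the 10 means was 0.21, and that of all genes was -0.03. Simulated arrays of this number had independent noise, 50 genes changed at each size tried, and all other genes at 0. Changes of 1 on the log2 scale were called for 24.0% of genes and changes of 0.5 for none of 50. In that setting most changes of the size seen here would not be called. The real data may differ from that setting, so these shares need not hold for them.

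**Figure D1:**
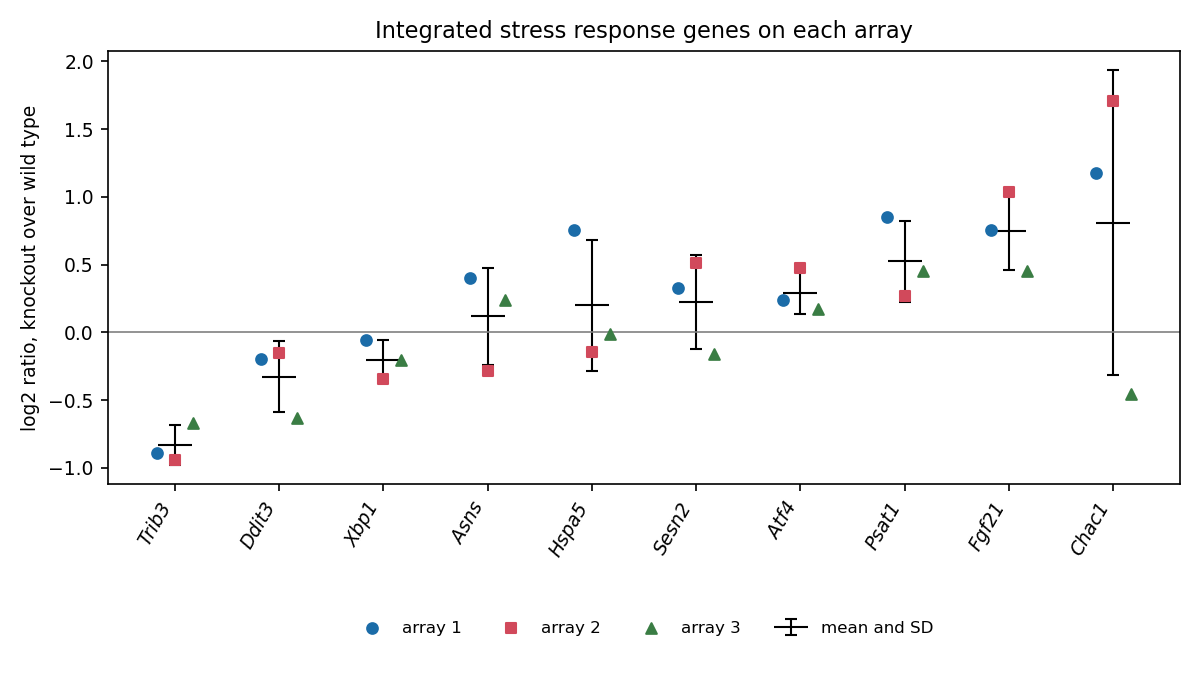
Log2 ratio of knockout over wild type (vertical axis) for each of the 10 genes (horizontal axis, ordered by mean), with 1 marker per array and a black bar for the mean and SD of 3 arrays. Trib3 lies below 0 and Fgf21 above 0 on every array, while Chac1 spans from -0.45 to 1.71.

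Atf4, the transcription factor at the centre of the response, had ratios of 0.24, 0.47 and 0.17 on arrays 1, 2 and 3. These means of its 2 features were above 0 on every array, with a mean of 0.29 ± 0.16 (95% interval -0.01 to 0.60, adjusted p = 0.201). The features averaged 0.44 ± 0.13 and 0.15 ± 0.21, and the second was at -0.06 on array 3. Ddit3, which encodes CHOP, lay on the other side, at -0.20, -0.15 and -0.63. Its mean was -0.33 ± 0.26 (95% interval -0.68 to 0.03, adjusted p = 0.215). Atf4 was above Ddit3 on each of the 3 arrays, by 0.62 ± 0.18 on average. This difference was not tested.

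Trib3 encodes a pseudokinase induced by ATF4 and CHOP that feeds back on them. Its ratios were -0.89, -0.94 and -0.67, the lowest of the 10 genes on each array. The mean of -0.83 ± 0.14 corresponds to a level 1.78-fold lower in the knockout (95% interval -1.13 to -0.53), and it missed the threshold (adjusted p = 0.0624). Its relatives lay nearer to 0 or above it: Trib1 had a mean of -0.02 ± 0.42 and Trib2 one of 0.28 ± 0.11. Trib3 minus Trib2 was -1.30, -1.16 and -0.88 on the 3 arrays, a difference that was not tested. The 3 named genes whose array values lay nearest to those of Trib3 were Cmtm8 (-0.80 ± 0.16), Tceal9 (-0.81 ± 0.12) and Mtarc1 (-0.85 ± 0.07), at Euclidean distances of 0.059, 0.082 and 0.11 over the 3 arrays.

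Fgf21 encodes a secreted hormone that signals nutrient stress between organs and is an ATF4 target. It stood on the opposite side of 0 from Trib3, with ratios of 0.76, 1.03 and 0.46. The mean was 0.75 ± 0.29 (1.68-fold higher, 95% interval 0.38 to 1.12), with an adjusted p of 0.0759. The promoter stretches above hold a match to the same motif in both genes. Fgf21 exceeded Trib3 on all 3 arrays, by 1.64, 1.97 and 1.12. Klb, the co-receptor for this hormone, had 0.39 ± 0.42.

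Chac1, which encodes an enzyme that breaks down glutathione, had the highest mean of the 10 genes and also the widest spread. Its ratios were 1.17 on array 1, 1.71 on array 2 and -0.45 on array 3. Array 3 was thus below 0 while the others were well above it, and the mean of 0.81 ± 1.12 (95% interval -0.21 to 1.82, adjusted p = 0.264) had an interval that included 0. Without array 3 the mean was 1.44 and still missed the threshold (adjusted p = 0.209). The related glutathione-degrading gene Chac2 was below 0 on each array, at -0.46, -0.69 and -0.27 (mean -0.48 ± 0.21, adjusted p = 0.109).

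Among the enzymes of amino acid synthesis, Psat1, the transaminase of the serine pathway, had ratios of 0.85, 0.27 and 0.46. The mean was 0.53 ± 0.30 (1.44-fold higher, 95% interval 0.15 to 0.90, adjusted p = 0.115). Its 2 features averaged 0.75 ± 0.28 and 0.30 ± 0.33, and the second was at -0.02 on array 2. Asns, which makes asparagine and has a match to the C/EBP-ATF motif close to its start, had 0.40, -0.28 and 0.24. Array 2 was thus below 0, and the mean of 0.12 ± 0.36 (95% interval -0.29 to 0.53) turned to -0.02 without array 1. Psat1 was above Asns on all 3 arrays, by 0.41 ± 0.17.

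Sesn2 encodes a leucine-binding brake on the growth kinase complex mTORC1. It had 0.32, 0.51 and -0.16 and averaged 0.22 ± 0.35 (95% interval -0.18 to 0.63, adjusted p = 0.412). Its relatives Sesn1 and Sesn3 had means of -0.04 ± 0.15 and -0.24 ± 0.19. Sesn2 lay above Sesn3 on every array, on array 3 by 0.09.

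The ER arm gave small ratios. Hspa5, the main ER chaperone, was at 0.75 on array 1, -0.14 on array 2 and -0.01 on array 3. Array 1 alone was above 0, and the mean of 0.20 ± 0.48 (95% interval -0.30 to 0.70) became -0.08 without it. Xbp1 was slightly below 0 on every array, at -0.06, -0.34 and -0.21 (mean -0.20 ± 0.14, 95% interval -0.50 to 0.10, adjusted p = 0.327). The Xbp1 feature gives total transcript as far as the annotation tells, and splicing by the sensor IRE1 was not measured.

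Ordered by mean, the genes ran Trib3, Ddit3, Xbp1, Asns, Hspa5, Sesn2, Atf4, Psat1, Fgf21 and Chac1. Of the 9 neighbouring pairs, 2 kept their order on all 3 arrays, Trib3 below Ddit3 (by 0.51 ± 0.41) and Xbp1 below Asns (by 0.32 ± 0.23). The other neighbours differed by less than their SD. From Asns to Atf4, for example, the steps were between 0.03 and 0.08 with SDs from 0.23 to 0.56. The arrays also differed as a whole. The median of the 10 genes was 0.36, 0.06 and -0.09 on arrays 1 to 3, with 7, 5 and 4 genes above 0.

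Of the other genes of the pathway, 143 in 11 lists were measured. None passed limma's adjusted threshold, but at an unadjusted p under 0.05 24 were higher and 3 lower, 16.8% and 2.10%, where 12.0% of all genes were higher and 14.3% lower. Of the 24 higher genes, 14 lay in the lists of amino acid supply. The lists were described by counts and medians, with no set test, and were chosen with earlier results of these data known.

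**Figure D2:**
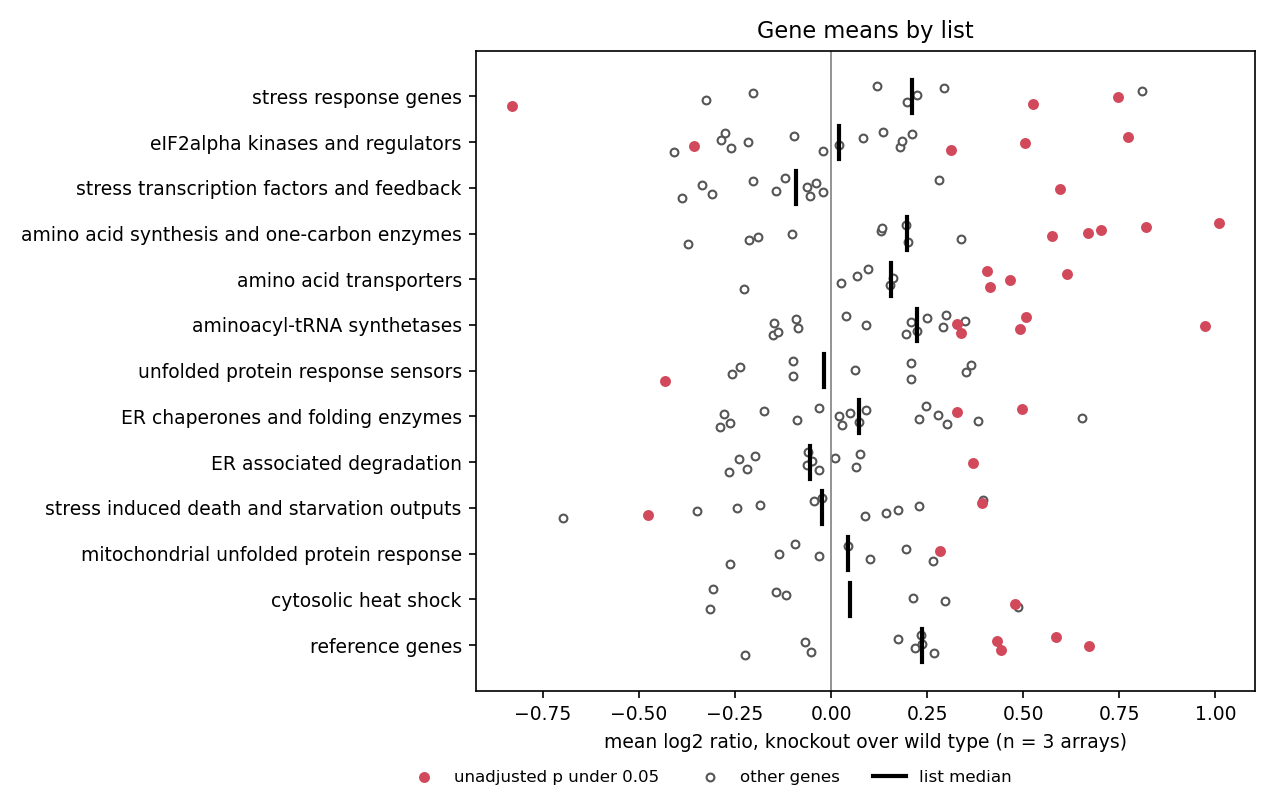
Mean log2 ratio over 3 arrays (horizontal axis) of each measured gene in the stress response set, in 11 related lists and in a list of reference genes (vertical axis). Filled points had an unadjusted p under 0.05 and black bars mark list medians, which lie at 0.20, 0.16 and 0.22 in the 3 amino acid lists and at 0.24 in the reference genes.

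Enzymes of amino acid synthesis and one-carbon metabolism had 5 of 14 members higher at an unadjusted p under 0.05 and none lower, with a median of 0.20. Aldh18a1, the first enzyme of proline synthesis from glutamate, had 1.12, 1.31 and 0.61 (mean 1.01 ± 0.36, adjusted p = 0.0648). The mitochondrial enzyme genes Pck2 (0.82 ± 0.24), Shmt2 (0.67 ± 0.15), Pycr1 (0.58 ± 0.29) and Mthfd2 (0.70 ± 0.48) were above 0 on every array. Most genes named from the amino acid lists were picked by their small p on these same arrays, which favours a shared sign. Phgdh, which precedes Psat1 in serine synthesis, was at 0.64, 0.10 and 0.27.

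Amino acid transporters had 4 of 10 members higher and none lower at the same unadjusted threshold (median 0.16). Slc1a4, a carrier of neutral amino acids, had 0.61 ± 0.24 (adjusted p = 0.0840). Slc7a5 and Slc3a2, the chains of a leucine transporter, had 0.46 ± 0.17 and 0.41 ± 0.08, and the glutamine carrier gene Slc1a5 had 0.41 ± 0.30. These 4 genes, picked by their small p, were above 0 on all 3 arrays.

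Aminoacyl-tRNA synthetases, which charge tRNAs with amino acids, had 5 of 19 members higher and none lower (median 0.22). The valine enzyme gene Vars had 1.04, 1.25 and 0.63 (mean 0.97 ± 0.32, adjusted p = 0.0640). Hars (histidine) had 0.51 ± 0.07, Mars1 (methionine) 0.49 ± 0.34 and Farsa (phenylalanine) 0.34 ± 0.15. Over the 3 lists together, 22 of 43 genes (51.2%) were above 0 on every array, where 23.2% of all genes were. Below 0 on every array were 3 (6.98%), Got1, Cbs and Lars, where 27.3% of all genes were. Means were above 0 for 33 of the 43 and below 0 for 10, among them Gpt2 (-0.37 ± 0.66), Cth (-0.21 ± 0.42), Gars (-0.15 ± 0.22) and Tars (-0.15 ± 0.31). At an unadjusted p under 0.05, 14 (32.6%) were higher and none lower, beside 12.0% and 14.3% of all genes. The count higher at this threshold was 7 (16.3%) without array 1, beside 7.52% of all genes. Without array 2, whose Sox4 value stood apart, it was 14 (32.6%, beside 10.2%). Without array 3 it was 12 (27.9%, beside 8.46%).

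Reference genes, often taken as constant, had 9 of 12 means above 0, and their part in the result was not tested. On every array 6 of the 12 were above 0 and 1, Hprt (-0.22 ± 0.09), was below, while Ppia (-0.07 ± 0.06) and Ywhaz (-0.05 ± 0.45) also had means below 0. In this list 4 genes were higher at an unadjusted p under 0.05, among them Polr2a (0.67 ± 0.22) and Gapdh (0.58 ± 0.48). The median of all 12, 0.24, was as high as those of the amino acid lists.

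**Figure D3:**
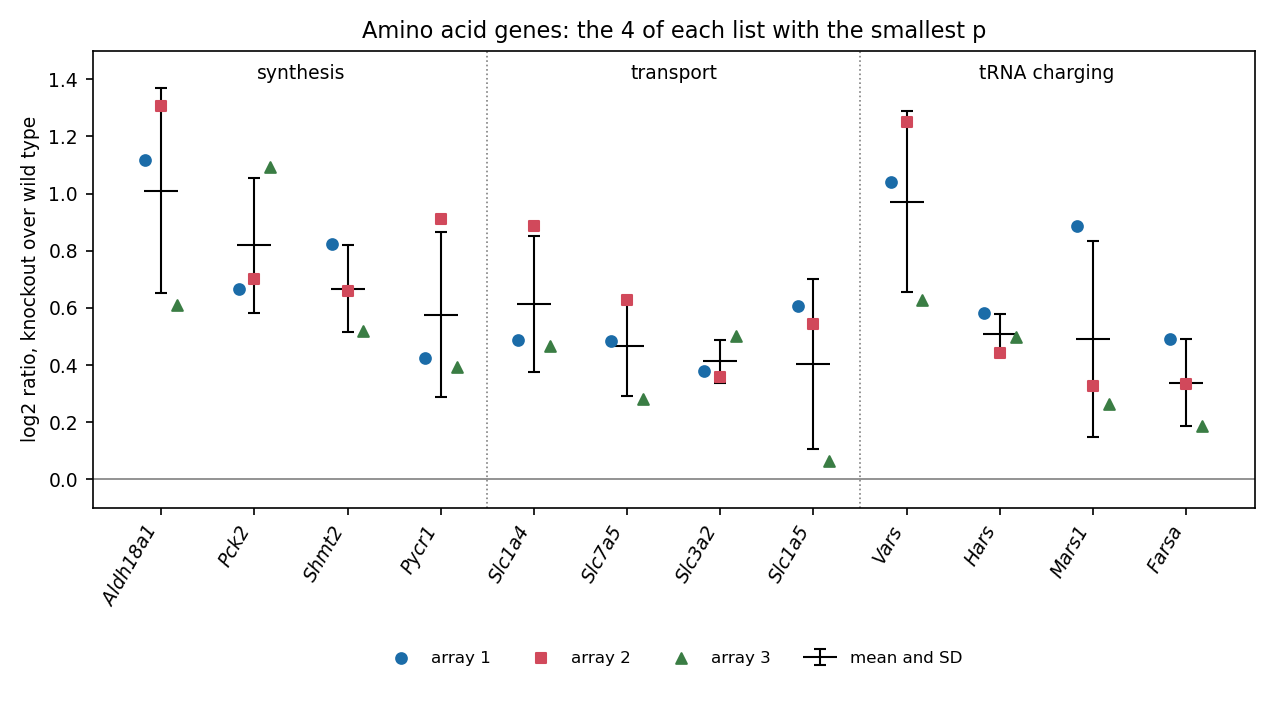
Log2 ratio of knockout over wild type (vertical axis) on each array for the 4 genes of each amino acid list with the smallest p (horizontal axis), with the mean and SD of 3 arrays in black. All 12 genes lie above 0 on every array, from 0.06 for Slc1a5 on array 3 to 1.31 for Aldh18a1 on array 2. Picking genes by their p on these same arrays favours a shared sign, so this is no separate result.

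Upstream of Atf4, the kinases and regulators of eIF2alpha went both ways (17 genes, median 0.02, 3 higher and 1 lower at an unadjusted p under 0.05). Eif2ak1, the haem-regulated kinase, had 0.64, 1.06 and 0.62 (mean 0.77 ± 0.25, adjusted p = 0.0687). Eif2ak3, which encodes PERK, was below 0 on every array, at -0.29 ± 0.15 (adjusted p = 0.206). The subunits of the exchange factor eIF2B split, with Eif2b5 at 0.50 ± 0.07 and Eif2b1 at 0.31 ± 0.08 but Eif2b2 at -0.36 ± 0.08. Stress transcription factors and feedback genes had 10 of 12 means below 0, beside 11107 of all 20738 genes. None of the 10 was below 0 on all arrays. The list's median of means was -0.09, and its medians on arrays 1 to 3 were 0.08, 0.03 and -0.11. Without array 3 the median of means was 0.03. In that list Jund (0.60 ± 0.60) was the 1 gene with an unadjusted p under 0.05, and Nfe2l2 and Ddit4 had -0.39 ± 0.46 and -0.31 ± 0.42.

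The lists of the unfolded protein response had medians near 0. Its sensors had a median of -0.02 over 10 genes, with Mbtps2, the protease that releases ATF6, at -0.43 ± 0.05 and Atf6b at 0.36 ± 0.32. ER chaperones and folding enzymes had a median of 0.07 over 19 genes, with Txndc5 at 0.50 ± 0.14, P4hb at 0.33 ± 0.17, Hsp90b1 at 0.30 ± 0.22 and Dnajb9, an XBP1 target, at -0.29 ± 0.15. At an unadjusted p under 0.05, 2 of these 19 were higher and none lower. Their median was highest on array 1 (0.37), as was Hspa5, against 0.06 and -0.08 on arrays 2 and 3. ER associated degradation had a median of -0.06 over 12 genes, with Edem2 at 0.37 ± 0.22 and Derl2 at -0.27 ± 0.13.

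Outputs in cell death and starvation had a median of -0.02 over 13 genes. Beside Chac2, Bcl2, which opposes cell death, had 0.39 ± 0.29, and Vldlr had -0.35 ± 0.26. The mitochondrial stress list had a median of 0.04 over 9 genes, with the protease gene Clpp at 0.28 ± 0.04, and the cytosolic heat shock list one of 0.05 over 8 genes, with its master factor gene Hsf1 at 0.48 ± 0.13.

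Markers of 9 cell types that whole jejunum or attached tissue can hold were read on the same arrays, and genes of 2 of these lists passed limma's adjusted test. Of 9 enteroendocrine markers, which belong to the hormone-secreting cells of the epithelium, 4 fell: Nts (-6.51 ± 0.32), Gcg (-5.21 ± 0.14), Cck (-1.82 ± 0.42) and Pyy (-1.43 ± 0.20). In this list 6 were below 0 on every array and the median was -1.21, and 2 of the 9 passed without array 1, 3 without array 2 and 2 without array 3. Of 9 pancreatic acinar markers, 6 were below 0 on every array, with list medians from -0.77 to -0.25, and none passed the adjusted test. Of 8 adipocyte markers, 7 were below 0 on every array (list medians from -2.22 to -2.01), and 5 fell: Cfd (-5.95 ± 0.65), Adipoq (-4.68 ± 0.41), Car3 (-3.62 ± 0.50), Plin1 (-2.12 ± 0.20) and Retn (-2.09 ± 0.02). Of these 8 markers, 3 passed without array 1 and none without array 3. Paneth markers had medians of -0.18, 1.25 and 0.19 and goblet markers -0.28, 0.75 and 0.08 on arrays 1, 2 and 3. Both were highest on array 2, as were the plasma cell, acinar, enterocyte, smooth muscle and leukocyte medians. The enteroendocrine and adipocyte medians were lowest on array 2. Neither the Paneth nor the goblet list had a gene past the adjusted test. At an unadjusted p under 0.05, 1 of 6 Paneth and 2 of 8 goblet markers passed, beside 26.3% of all genes. Plasma cell markers had medians from -0.40 to 0.07, and none passed the adjusted test. Their means went both ways, 5 of 8 below 0, among them Tnfrsf17 (-0.66 ± 0.37) and Mzb1 (-0.55 ± 0.33), and 3 above 0, Jchain (0.34 ± 0.47), Irf4 (0.08 ± 0.34) and Sdc1 (0.08 ± 0.13). The part of these cell types in the ratios of the stress response genes was not tested.

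**Figure D4:**
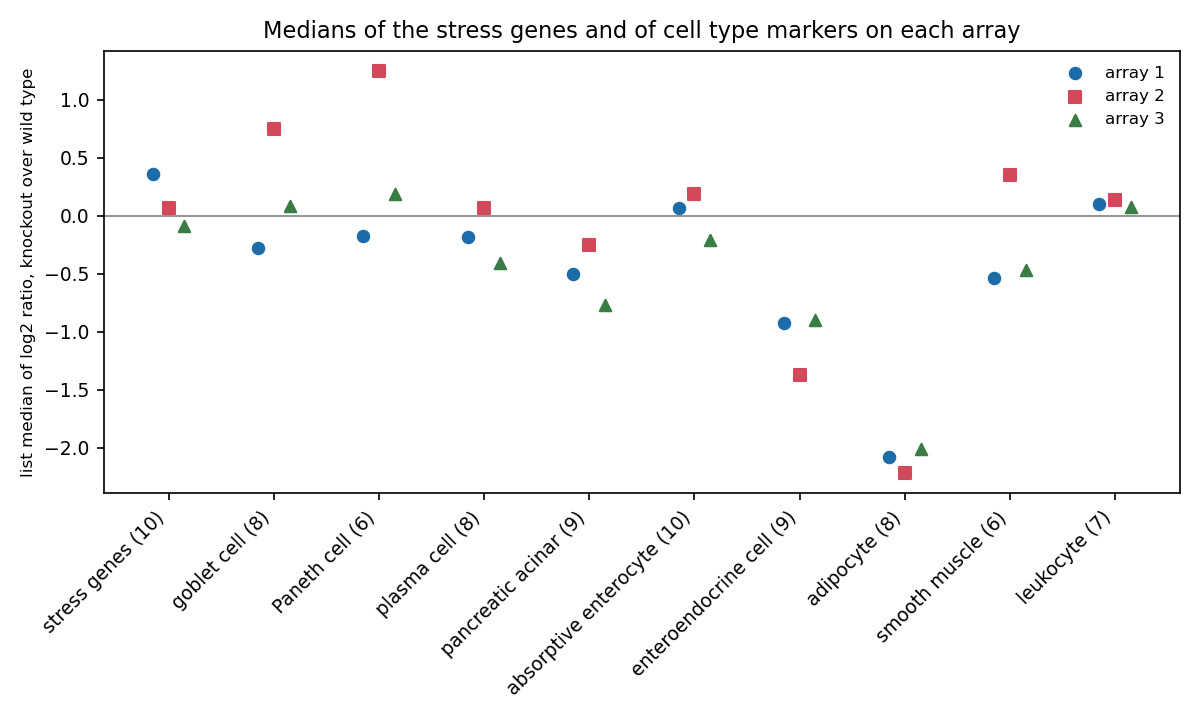
Median log2 ratio of knockout over wild type (vertical axis) on each array for the 10 stress response genes and for 9 lists of cell type markers (horizontal axis, number of measured genes in brackets). Adipocyte medians lie near -2 on every array, while the medians of all other marker lists except the enteroendocrine one are highest on array 2.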

How the data were processed

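Per the labels, total RNA was extracted with a Qiagen kit and hybridised to 2-colour arrays, knockout in Cy5 and wild type in Cy3. The authors deposited log ratios of the channels for 62976 features, taken here as log2. The sources used here do not state their normalization, filters, log base or direction. Base 2 was assumed, since values from -7.44 to 5.62 are too wide for base 10, and under the natural logarithm folds would be larger. Array medians of 0.007, 0.003 and 0.011 show centring, and no further scaling was applied. Without intensities, dim features could not be removed.

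Names came from the platform annotation and, by accession, from RefSeq (29036 of 31465 features with a symbol), and features were averaged per gene and array. A limma 3.58.1 fit (R 4.3.3, lmFit then eBayes) compared gene means with 0 (two-sided, 2 residual and 3.51 prior degrees of freedom), with Benjamini-Hochberg adjustment over 20738 genes at 0.05. The spread among wild-type mice does not enter this test, and a dye effect cannot be told apart from genotype. An exact sign test of 3 arrays cannot go below 0.25. The number of arrays limits the precision. The fit was tested on simulated data.

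Promoter windows are RefSeq's, of GRCm38.p6. Named genes are the 10 stress genes, the 3 genes nearest to the one with the largest mean in size, and in each list those past the threshold and up to 4 with the smallest p. Relatives of the 10 genes, Mthfd2, Phgdh, Eif2ak3, Jchain, Irf4, Sdc1, Hprt, Ppia, Ywhaz, Sox4 and the sex-linked genes were added with values known, as was the list of reference genes. Got1, Cbs, Lars, Gpt2, Cth, Gars and Tars were also added with values known. Members and lists were chosen with earlier results of these data known. Alternatives were another feature summary, centring, scaling, other tests, symbols as given, single features and leaving out each array.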

Additional observations from a re-analysis of the deposited data

How the results depend on the processing

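None of the 10 stress response genes passed an adjusted p of 0.05 under any of the alternatives run, and the lowest adjusted p was 0.0589, for Trib3. Trib3 stayed between -0.91 and -0.78 with adjusted p from 0.0589 to 0.240, and Fgf21 between 0.61 and 0.89 with adjusted p from 0.0701 to 0.286. Of 90 values of single genes under alternatives, 88 kept their sign, and 2 turned without array 1, Asns to -0.022 and Hspa5 to -0.0785. The other tests, symbols as given and the other feature summary left these means unchanged. The sign could thus turn only under centring, scaling or leaving out an array. With 1 array left out Asns ranged up to 0.321 and Hspa5 up to 0.369. The number of the 10 genes with an unadjusted p under 0.05 ranged from 2 to 5 with 1 array left out (5 without array 3). In those settings from 7.52% to 10.2% of all genes were higher at this threshold (8.46% without array 3). The share of all genes that were lower is not given here, so these counts cannot be read against the full share. Over all genes, the 68 calls became from 4 to 66 with 1 array left out, 1 with an ordinary test without shrinkage, and 325 among 62976 single features. The cause was not tested. The count of amino acid genes higher at an unadjusted p under 0.05, an alternative chosen after seeing the data, was from 7 to 14 of 43 with 1 array left out. These are 16.3% to 32.6%, beside 7.52% to 10.2% of all genes. List medians moved by more than their spread between arrays in 10 of 126 cases, all of them with 1 array left out. That limit is wide beside what leaving out 1 of 3 arrays can change, so this count says little about stability. No paired analysis was possible because the samples form 1 group. Without intensities, signal over background could not be assessed.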

Other observations

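Some cytosolic heat shock genes, outside the stress response genes described above, split by array. The knockout mouse, the array and its wild-type RNA cannot be told apart in such a split. Hspa1a, which encodes the inducible HSP70, had ratios of 1.42, -1.30 and 1.34 on arrays 1, 2 and 3, and Hsph1, its exchange factor, had 1.08, -0.92 and 0.48. The list's medians were 0.47, -0.64 and 0.21, so array 2 stood on the other side of 0. Not all of its genes did so: Hsf1 was above 0 and Hspb1 below 0 on every array. The ER chaperone gene Hyou1 (1.31, 0.99 and -0.34) had instead the arrangement of Chac1, with array 3 alone below 0. This arrangement was not particular to them, as Sesn2 and the ER list genes Calr, Sdf2l1 and Pdia4 had it too. These genes were chosen after their values were seen, and none passed the adjusted test.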
